A study of Mus musculus with 2 samples.

Results

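The 49 genes described here encode the machinery by which nerve terminals release neurotransmitter, among 21938 protein-coding genes annotated in GENCODE M21. They were chosen by name and not by a measured value, though with earlier results of these data known. Of them, 11 encode SNARE proteins and their regulators, 10 encode synaptotagmins or Doc2 proteins, 14 encode vesicle proteins, 13 encode active zone and priming proteins, and 1 encodes a dynamin. Accessibility was measured by DNase-seq, which maps where the enzyme DNase I cuts open chromatin. The tissue was cortex of the left hemisphere, taken at 14 days of age from 2 female B6CASTF1/J mice, F1 offspring of a cross between C57BL/6J and CAST/EiJ. No treatment or engineered allele is given in the labels, and the 2 libraries, one from each numbered animal, are replicates 1 and 2 of 1 group. No test between groups therefore existed, and values are printed for each library, in the order replicate 1, replicate 2, or as mean ± SD (n = 2).

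A vesicle fuses when the vesicle SNARE synaptobrevin (the Vamp genes) zippers with syntaxin and SNAP-25 on the plasma membrane. Complexins clamp that complex, synaptotagmins trigger fusion on binding calcium, and NSF with its SNAP adaptors takes the spent complex apart. Before this, scaffolds of the active zone such as RIM, Bassoon and Piccolo gather vesicles and calcium channels, and Munc13 proteins prime the vesicles. In the cortex many of these genes, though not all, are used by most neurons, and glia use some of them.

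The libraries held 90059 peaks in replicate 1 and 175597 in replicate 2, and 199455 and 416840 footprints, which are short protected stretches inside accessible DNA. The value of a peak is the authors' signal, whose unit is not given in the sources used here, so depth is unknown. A DNase I hypersensitive site (DHS) counted as shared when peaks of both libraries met in it. The median signal over shared DHSs was 0.755 in replicate 1 and 0.811 in replicate 2. Among marker lists, promoters of 7 of 8 cortical neuron genes were accessible in both libraries, as were 3 of 6 for inhibitory neurons, 3 of 5 for astrocytes, 3 of 5 for the oligodendrocyte lineage and 2 of 5 for microglia. The count was 0 of 4 for endothelium, 0 of 5 for hindbrain and spinal cord and 0 of 4 for liver. Over all protein-coding genes 62.7% were accessible in both libraries, and only the cortical neuron list stood above this share. The tissue held several cell types, so fewer open cells and less opening per cell cannot be told apart in any value given here.

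Nearly all of the release genes had an open promoter. A peak overlapped the 1 kb on either side of a transcription start site in both libraries for 45 of the 49 genes (91.8%), against 62.7% of all protein-coding genes. Replicate 2 had such a peak at all 49, and replicate 1 lacked it at Cplx3, Syt2, Slc17a6 and Slc17a8. A footprint lay in the window in both libraries for 44 genes (89.8%), against 60.8% of all protein-coding genes. The one open promoter without a footprint in both was that of Sv2b, which had 0 footprints in replicate 1 and 10 in replicate 2. The release genes had a median of 4 annotated start sites, against 3 for all protein-coding genes, which gives them more sequence in which to find a peak. With the most 5′ start site alone, 42 of the 49 remained open in both libraries, against 57.6% of all protein-coding genes.

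The open promoters were not high ones. Their highest peak had a median signal of 2.01 and 1.91 in the 2 libraries, against 2.52 and 2.13 over all protein-coding genes with an open promoter. Of the 45, 15 stood above the median of those genes and 30 at or below it. Only 2, Napa and Ppfia3, stood among the highest 10%. The highest 25% held 6 of the 45 and the lowest 25% held 12. The latter is near the share that any set of open promoters would have there, so low promoters were not in excess. When all peaks in the window were added up, the gap was small, with a median of 3.30 for the release genes against 3.38. The highest promoter DHS was 280 bp wide at the median, against 240 bp. Its midpoint lay within 200 bp of a start site at 36 of the 45 genes and over 800 bp away at 5. The same counts over all open protein-coding promoters are not given here, so these do not set the release genes apart. CpG dinucleotides were counted within 500 bp of the most 5′ start site of all 49 genes, open or not. The median observed over expected ratio was 0.667, against 0.552 over all protein-coding genes, open or not. The release genes were thus closer to the number that base composition predicts.

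**Figure D1:**
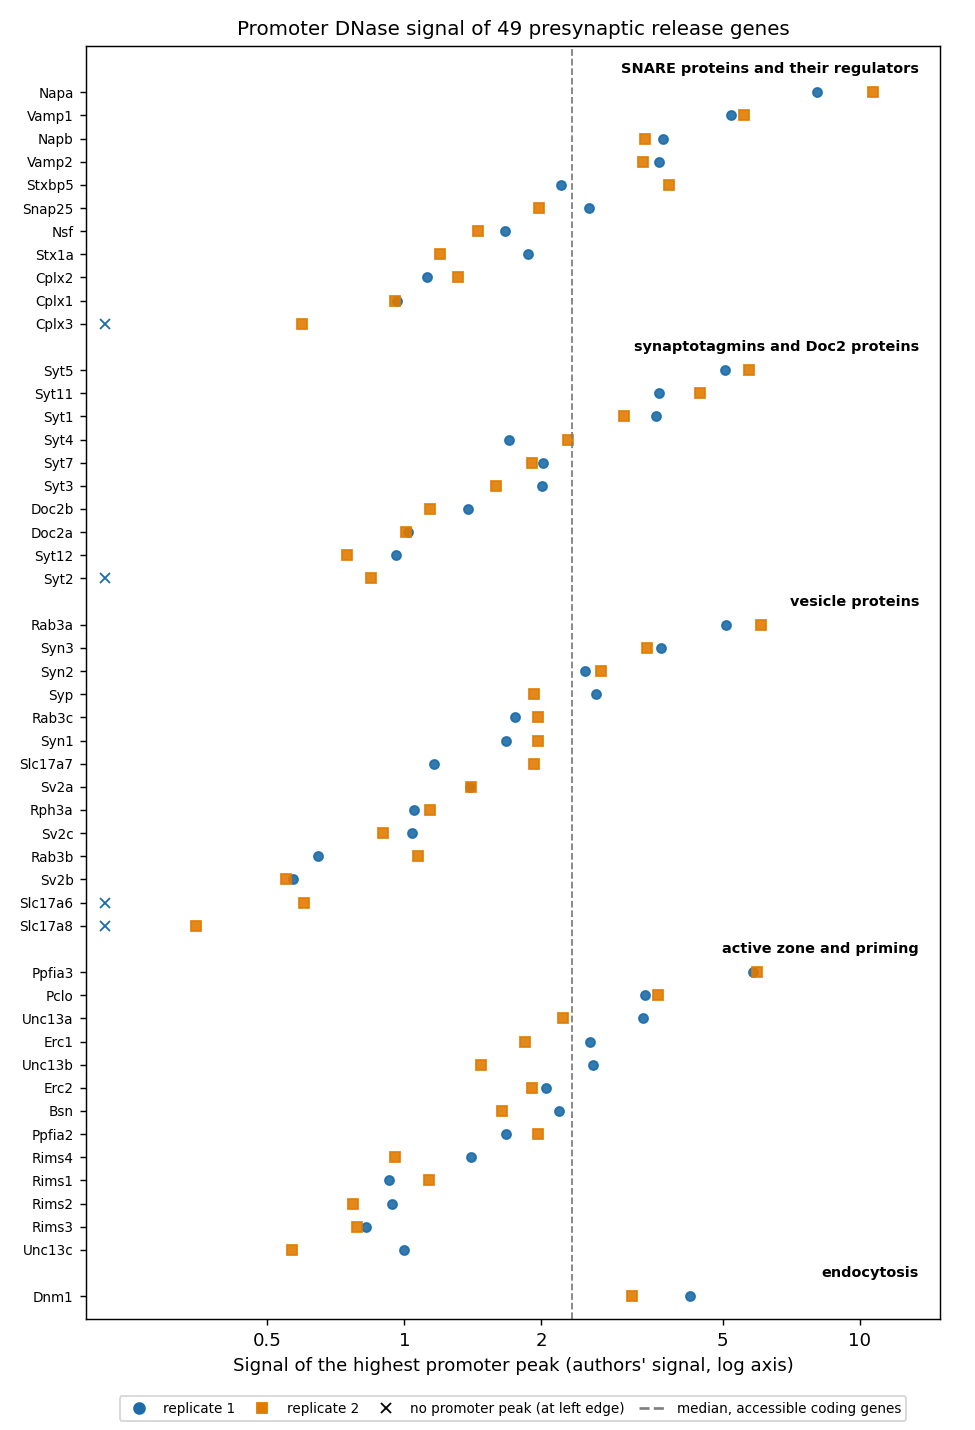
Authors' signal of the highest promoter peak (horizontal, log axis) for each of the 49 release genes, grouped by role; circles are replicate 1, squares replicate 2, crosses at the left edge mark no peak, and the dashed line is the median of open protein-coding promoters (2.33). Napa reaches 8.06 and 10.7, most genes lie left of the line, and the 4 crosses are all in replicate 1.

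The 2 animals gave like values. None of the 45 genes differed by over 2-fold between libraries. The log2 ratio of replicate 2 to replicate 1 ran between -0.82 and 0.79, with an SD of 0.378 over the release genes, against 0.360 over all open protein-coding promoters. Its median was -0.0682 for the release genes and -0.179 for all. The signal was higher in replicate 2 at 19 genes and higher in replicate 1 at 26. At Rab3b, Unc13b and Rims3 the highest peaks of the libraries lay at different start sites, so their ratios do not compare 1 site. At the first start sites of Unc13b the values were 2.60 and 1.33, further apart than its highest peaks, 2.60 and 1.47. A difference between 2 genes smaller than about this spread is therefore not resolved.

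**Figure D2:**
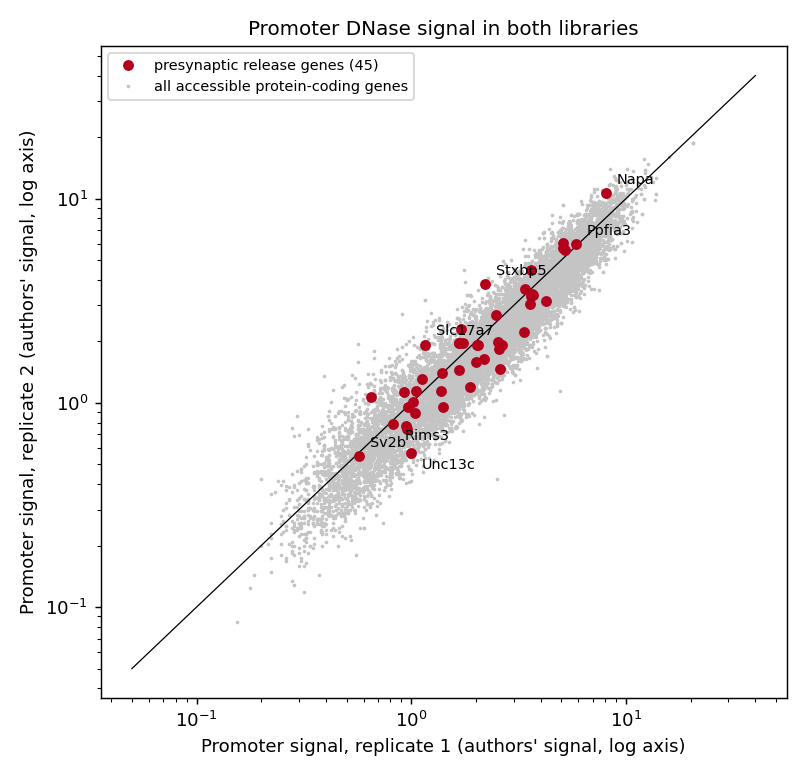
Promoter signal in replicate 2 (vertical) against replicate 1 (horizontal), both on log axes, for the 45 open release genes (red) and all protein-coding genes with an open promoter (grey), with the line of equality. The red points lie within the grey cloud, Napa near its upper end and Sv2b (0.570 and 0.548) in its lower part.

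Some promoters and a distal site are shown as sequence before the genes are described one by one, because their motif matches or footprints return in the results. The first pair holds matches to RE1, the element read by the repressor REST, which keeps neuronal genes silent outside neurons. RE1 was searched by name, as its left and right half-sites with at most 2 mismatches in all. The other motifs were searched on both strands with no mismatch, among them the EGR site GCGTGGGCG and the CRE TGACGTCA. In each line the capitals mark the motif matches, and the sequence runs 5′ to 3′ on the strand of the gene (RefSeq promoters, GRCm38.p6, cut where the first exon begins). Syn1 (chrX:20921005-20921168, minus strand) holds an RE1 match and, nearer the gene, a CRE. Rph3a (chr5:121009539-121009788, minus strand) holds an RE1 match on the opposite strand.
Syn1: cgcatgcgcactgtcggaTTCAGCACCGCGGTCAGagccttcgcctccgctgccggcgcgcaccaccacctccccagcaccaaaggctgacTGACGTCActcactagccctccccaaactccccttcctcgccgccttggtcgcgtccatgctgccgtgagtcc
Rph3a: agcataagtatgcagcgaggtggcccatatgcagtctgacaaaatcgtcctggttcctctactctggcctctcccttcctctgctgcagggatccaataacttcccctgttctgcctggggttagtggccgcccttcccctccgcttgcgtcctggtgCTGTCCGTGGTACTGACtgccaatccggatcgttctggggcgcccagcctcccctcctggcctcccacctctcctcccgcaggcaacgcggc

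Unc13a (chr8:71671758-71672007, minus strand) and Bsn (chr9:108190385-108190633, minus strand) are shown because a whole match lay inside a footprint of both libraries. The Unc13a capitals are an EGR match on the opposite strand, and the Bsn capitals are 2 NRF1 matches, the palindrome GCGCATGCGC, of which the upstream one was the footprinted one.
Unc13a: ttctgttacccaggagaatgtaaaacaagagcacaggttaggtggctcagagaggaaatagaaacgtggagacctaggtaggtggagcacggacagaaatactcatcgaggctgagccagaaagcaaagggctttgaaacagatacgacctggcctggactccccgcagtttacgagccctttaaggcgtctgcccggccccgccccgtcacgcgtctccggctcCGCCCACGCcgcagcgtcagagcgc
Bsn: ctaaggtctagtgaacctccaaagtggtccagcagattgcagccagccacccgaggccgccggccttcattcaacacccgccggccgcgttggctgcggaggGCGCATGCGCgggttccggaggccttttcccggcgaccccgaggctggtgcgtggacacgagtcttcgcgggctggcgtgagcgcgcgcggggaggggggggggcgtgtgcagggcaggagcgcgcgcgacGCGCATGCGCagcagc

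The last is the middle 300 bases of a DHS upstream of Slc17a7, the vesicular glutamate transporter gene VGLUT1 of cortical excitatory neurons. It was chosen after its values were seen, because the start sites of the coding transcripts had little or no signal while this site was open. It lies at chr7:45162071-45162370 (plus strand, GRCm38.p6), and its capitals mark the 16 bases that fell in footprints of both libraries.
Slc17a7 upstream DHS: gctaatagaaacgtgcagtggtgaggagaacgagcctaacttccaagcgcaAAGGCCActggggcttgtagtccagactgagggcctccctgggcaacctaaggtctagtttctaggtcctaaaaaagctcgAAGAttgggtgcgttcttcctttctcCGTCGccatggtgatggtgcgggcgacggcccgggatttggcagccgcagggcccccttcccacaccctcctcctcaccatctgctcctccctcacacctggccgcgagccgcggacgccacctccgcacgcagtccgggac

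Of the 11 genes for SNARE proteins and their regulators, 10 had an open promoter in both libraries, with a median signal of 2.64. Napa, which encodes the NSF adaptor alpha-SNAP used in every cell, had the highest promoter of all 49 genes, at 8.06 in replicate 1 and 10.7 in replicate 2. Napb, the beta form of this adaptor, which is enriched in brain, had 3.70 and 3.37. Both libraries thus put the broadly used adaptor above its neuronal relative. Nsf, the ATPase that these adaptors recruit, had 1.66 and 1.45. The vesicle SNARE genes were also high, with 5.22 and 5.58 at Vamp1 and 3.62 and 3.35 at Vamp2. The plasma membrane SNARE genes were lower in both libraries, with 2.54 and 1.98 at Snap25 and 1.87 and 1.20 at Stx1a. The order between the pairs held in each animal.

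Stxbp5, which encodes tomosyn, a protein that competes with synaptobrevin for syntaxin, had 2.21 and 3.82. Its highest DHS was centred at -1042 bp from the start site and overlapped the promoter window of the lincRNA Gm46210. Within 500 bp of its own start sites the mean signal was 1.17, against 3.02 in the full window. The complexin genes formed a low group. Cplx1 had 0.963 and 0.951, and Cplx2 had 1.12 and 1.31. Cplx3, a complexin best known from retinal ribbon synapses, had no promoter peak in replicate 1 and one of 0.597 in replicate 2.

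Of the 10 synaptotagmin and Doc2 genes, 9 were open in both libraries, with a median signal of 1.97. Syt5 had the highest promoter, at 5.06 and 5.72, followed by Syt11 at 3.62 and 4.45. Syt11 encodes a synaptotagmin that does not bind calcium. Syt1, the main fast calcium sensor of forebrain synapses, had 3.57 and 3.03. Syt7, a sensor of high calcium affinity with roles in slow release and facilitation, had 2.02 and 1.91. Syt1 thus stood above Syt7 in both animals. Syt4, which like Syt11 lacks calcium binding in its first C2 domain, had 1.70 and 2.29, and Syt3 had 2.01 and 1.59. Syt12 was the lowest of those open in both, at 0.956 and 0.747. The Doc2 genes, whose proteins bind calcium with high affinity and act in spontaneous release, had 1.02 and 1.01 at Doc2a and 1.38 and 1.14 at Doc2b.

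Syt2, the fast sensor of hindbrain synapses and of some cortical interneurons, was the synaptotagmin without a promoter peak in replicate 1. In replicate 2 its most 5′ site had 0.368 and a coding start site 62623 bp further in had 0.846. At Syt11 the most 5′ start site had no peak in either library, and the whole signal came from a coding start site 2565 bp downstream. With the most 5′ start site alone, Syt11 would therefore be counted as closed. The same holds for Doc2a and Slc17a7.

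The 14 vesicle protein genes had 12 open promoters and a median signal of 1.68. In replicate 1 their median was 1.53, below the 2.05 of the active zone genes, but in replicate 2 it was 1.93, above their 1.64. Rab3a, the main Rab GTPase of synaptic vesicles, led them with 5.08 and 6.08. Its relatives were lower, with 1.75 and 1.97 at Rab3c and 0.647 and 1.07 at Rab3b. The Rab3b values were not from the same site: at the first coding start sites they were 0.647 and 0.523, and the 1.07 of replicate 2 lay at a non-coding start site 60037 bp into the gene. Rph3a, which encodes the Rab3 effector rabphilin, had 1.05 and 1.14. Only Rab3a of these 4 stood above the median of open protein-coding promoters. The synapsins, phosphoproteins that tether vesicles to each other and to actin, had 1.67 and 1.97 at Syn1, 2.49 and 2.70 at Syn2 and 3.66 and 3.41 at Syn3. The order of the synapsin genes, with Syn3 first and Syn1 last, was the same in both libraries. Syn1 lies on chromosome X, while Syn2 and Syn3 lie on chromosomes 6 and 10. Both animals were female, and whether this bears on the order was not tested.

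Syp, which encodes synaptophysin, an abundant vesicle membrane protein that binds synaptobrevin, had 2.64 and 1.93. Like Syn1, it lies on chromosome X. The SV2 genes, whose glycoproteins are receptors of botulinum neurotoxin A, were low. Sv2a had 1.39 and 1.40, Sv2c had 1.04 and 0.896, and Sv2b had 0.570 and 0.548, the lowest value of the 45. The Sv2b peak also lies within 1 kb of a start site of the non-coding gene 1500012K07Rik.

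The 3 vesicular glutamate transporter genes stood apart from each other. Slc17a7 (VGLUT1) had 1.16 and 1.93, but this peak lay at internal start sites of non-coding retained-intron transcripts, 5001 bp and more inside the gene. At the start sites of its coding transcripts there was no peak in replicate 1 and one of 0.682 in replicate 2. The DHS printed above, 520 bp wide and centred at -1728 bp from the first start site, had 3.37 and 3.19, with 8 and 9 footprints. This made it higher in each library than any peak within 1 kb of a start site of the gene, and its nearest coding start site was that of Slc17a7.

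Slc17a6 (VGLUT2), used mainly by thalamic and other subcortical neurons, had no promoter peak in replicate 1 and 0.602 in replicate 2. Slc17a8 (VGLUT3), used by scattered neurons that often release another transmitter too, had none in replicate 1 and 0.348 in replicate 2. Both had shared DHSs away from promoters, 1 at Slc17a6 and 4 at Slc17a8. In Slc17a6 it lay 40617 bp into the gene in replicate 1 and 40758 bp in replicate 2, with a low signal of 0.277 and 0.219. The highest of those at Slc17a8 lay at -9028 bp from the first start site, with 1.66 and 1.28.

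**Figure D3:**
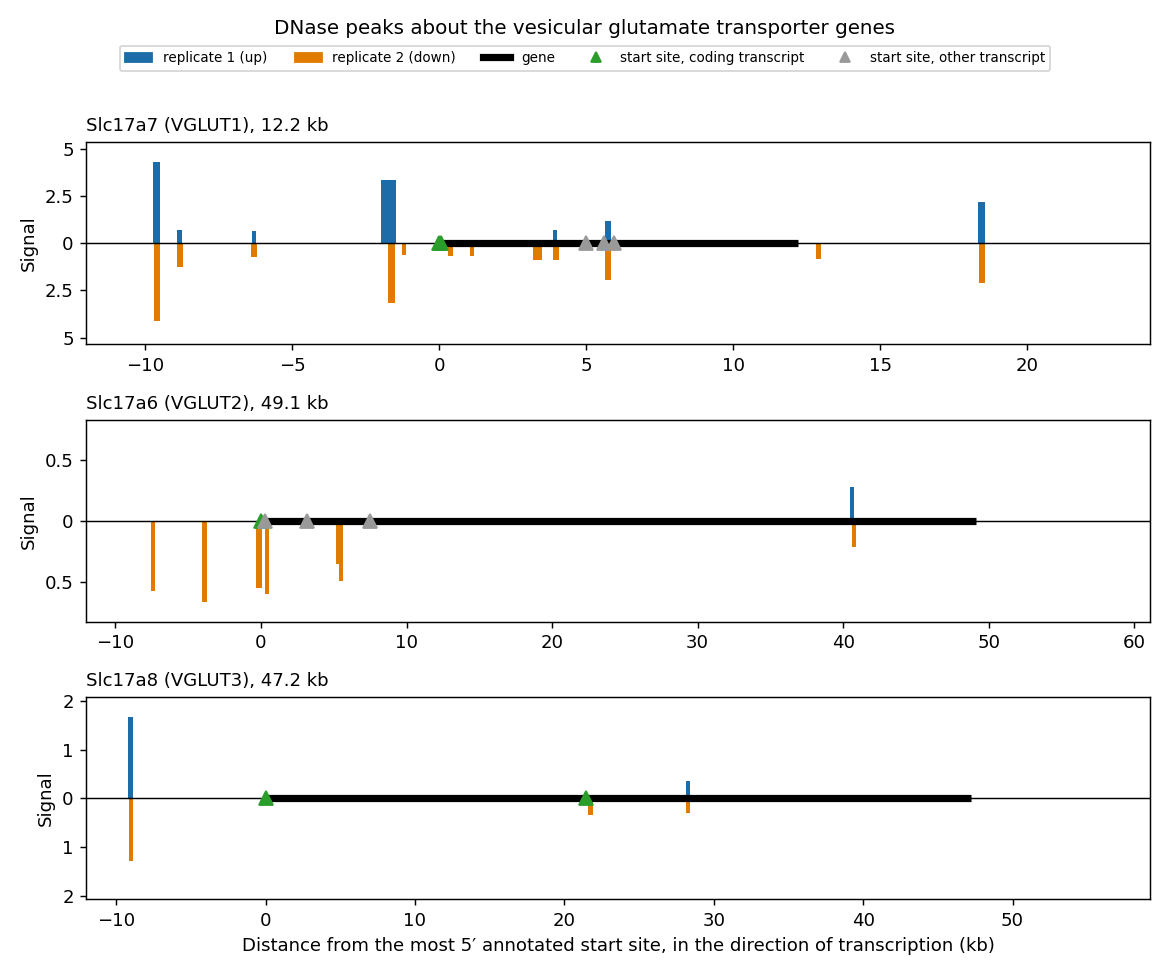
Peaks about Slc17a7, Slc17a6 and Slc17a8, with distance from the most 5′ start site in kb (horizontal) and authors' signal (vertical, on its own scale per gene); bars up are replicate 1, bars down replicate 2, the black line is the gene and triangles are start sites of coding (green) and other (grey) transcripts. At Slc17a7 the pair of bars nearest upstream of the gene (3.37 and 3.19) exceeds those at the start sites. A taller pair lies further upstream, with 4.28 at -9628 bp in replicate 1 and 4.12 at -9608 bp in replicate 2. That pair is not among the distal DHSs counted for Slc17a7, because it lies within 1 kb of a start site of another gene. Slc17a6 has start site peaks in replicate 2 alone.

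The 4 genes without a promoter peak in replicate 1 were also low in replicate 2, which is the library with more peaks. Protein-coding promoters with a like signal in replicate 2 were usually found in replicate 1 as well: 94.4% of them in the band of Syt2, 87.8% in the band that holds Cplx3 and Slc17a6, and 62.2% in the band of Slc17a8. The deposited segments with a false discovery rate of at most 0.05 told the same of replicate 1. They covered 0 bp of the promoter windows of Cplx3, Slc17a6 and Slc17a8 and 11 bp at Syt2, against 248 bp, 664 bp, 242 bp and 731 bp in replicate 2.

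All 13 active zone and priming genes were open in both libraries, with a median signal of 1.92. Ppfia3, which encodes liprin-alpha-3, a scaffold that positions active zones, had 5.83 and 5.96. The window of this promoter also holds start sites of the non-coding genes Gm45619 and Mtag2. Ppfia2, for liprin-alpha-2, had 1.67 and 1.97. Pclo and Bsn encode the giant scaffolds Piccolo and Bassoon, which share a domain layout. Pclo had 3.38 and 3.61 against 2.19 and 1.64 at Bsn, so Pclo was higher in each animal.

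The Munc13 genes, for the priming proteins without which vesicles do not become fusion-competent, fell in the order Unc13a, Unc13b and Unc13c in both libraries. Unc13a, the main form of forebrain excitatory synapses, had 3.35 and 2.23. Unc13b had 2.60 and 1.47, and Unc13c, known mainly from cerebellum, had 1.00 and 0.567. The Unc13b peaks were not the same site, since at the first start sites the values were 2.60 and 1.33 and the 1.47 of replicate 2 lay 150545 bp into the gene. The RIM genes, which link Rab3 and calcium channels to the active zone, were all low. Rims1 had 0.925 and 1.13, Rims2 had 0.940 and 0.772, Rims3 had 0.825 and 0.787, and Rims4 had 1.40 and 0.951. At the first start sites of Rims3 the values were 0.825 and 0.637, since the 0.787 of replicate 2 lay at a coding start site 23053 bp further in. Rims3 and Rims4 encode short gamma-type RIMs that hold little more than a C2 domain.

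The ELKS genes, for RIM-binding scaffolds, had 2.56 and 1.84 at Erc1 and 2.05 and 1.91 at Erc2. The gap between them was smaller than the gap between the libraries at Erc1. Dnm1, the dynamin that pinches off vesicles during endocytosis in neurons, had 4.24 and 3.16. Its highest peak also overlapped the promoter window of Ciz1, a gene on the opposite strand.

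Other promoters were shared with neighbours in the same way. The highest promoter peak also lay in the window of 1700008O03Rik at Syt3, Gm12339 at Doc2b, Gm17733 at Syn2, Gm29543 at Sv2c, and Gm37230 and Gm37247 at Bsn. At Syn2 and Ppfia3 the midpoint was close to the neighbour's start site, at -46 bp from that of Gm17733 and -52 bp from that of Mtag2. At these genes the window does not tell which of the start sites the opening belongs to.

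Many of the genes have several annotated promoters. Start sites up to 1 kb apart were joined into 146 clusters, of which 69 (47.3%) were open in both libraries, against 34.6% of the clusters of all protein-coding genes. Of the 35 genes with more than 1 cluster, 16 had more than 1 open in both (45.7%), against 19.8% of all protein-coding genes with more than 1 cluster. Windows of neighbouring clusters can overlap and then share a peak, as at Vamp2. With sites joined up to 2 kb apart, so that windows no longer overlapped, 66 of 135 clusters were open (48.9%), against 36.4%. Unc13b had 4 open clusters, with signals of 2.60 and 1.33 at the first, 1.13 and 0.911 at 56157 bp, 1.14 and 1.47 at 150545 bp, and 0.408 and 0.811 at 190214 bp. Rims2, which makes long and short RIM forms from separate promoters, had 3 open clusters of like height: 0.940 and 0.772 at the first, 0.909 and 0.657 at 193539 bp, and 0.786 and 0.662 at 461305 bp. At Ppfia3 the internal cluster at 25859 bp had 2.40 and 3.54, below the first cluster but above the median release gene promoter in both libraries. At Bsn, Pclo, Ppfia2, Rims1 and Unc13c every cluster but the first had no peak in either library.

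More distal DHSs were counted around the release genes than around protein-coding genes in general. Distal DHSs were shared sites over 1 kb from any start site and within 50 kb of one of the gene. Their mean was 5.37 per release gene with a median of 4, against a mean of 3.14 and a median of 3 over all protein-coding genes. At least 1 distal DHS was found at 48 of the 49 genes, against 80.7% of all protein-coding genes, and Cplx1 was the one with none. With the most 5′ start site alone, which takes away the wider reach of genes with more start sites, the mean was 3.78 against 2.52. From replicate 2 alone, it was 12.8 against 7.20. The most were found at Erc2 (16), Vamp2 (15), Syn2 (12), Nsf (11) and Sv2b (11). These counts do not assign a site to a gene: the nearest coding start site was the release gene's own in 62.4% of the 263 pairs. At Erc2 it was so for all 16, and at Vamp2, which lies in a dense stretch of genes, for 0 of 15.

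The release genes are long, with a median of 49.1 kb against 17.4 kb, and the scaffold genes exceed the rest, with a median of 277 kb. Their bodies held 157 shared DHSs away from start sites, of which 143 lay in introns and 14 touched exons. Syn3 had 20, Erc2 18, Ppfia2 10, Rab3c 9 and Rims2 9. These counts, and the densities below, do not assign a site to a gene either. Several of the sites in Syn3 had Timp3 as the nearest coding start site, and several of those in Rab3c had Pde4d. Per 100 kb the median gene had 2.15, against 0 over all protein-coding genes. Summed over bodies, however, the density was 2.30 per 100 kb, against 2.36, so the summed density was not higher. The roles differed here, with 3.60 per 100 kb over vesicle protein genes, 3.09 over SNARE genes, 2.56 over synaptotagmin and Doc2 genes and 1.63 over active zone genes.

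**Figure D4:**
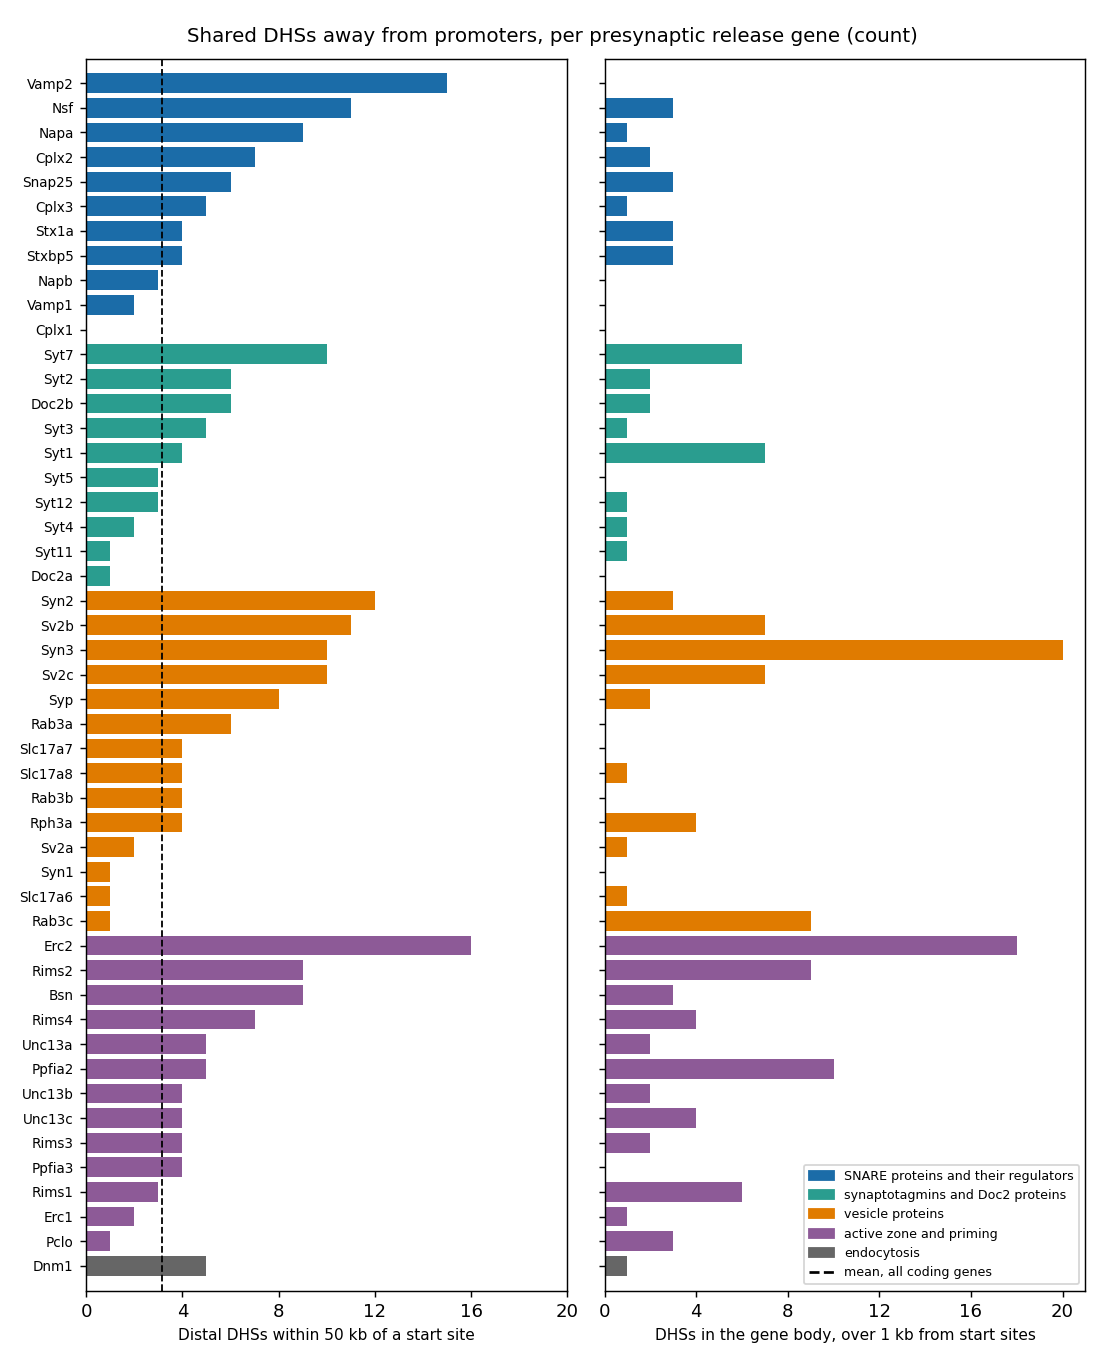
Number of shared DHSs within 50 kb of a start site (left) and in the gene body (right), both over 1 kb from start sites, for each release gene, coloured by role; the dashed line is the mean over all protein-coding genes (3.14). Erc2 (16) and Vamp2 (15) lead on the left, Syn3 (20) and Erc2 (18) on the right.

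In all, 309 DHSs lay in or near the release genes and away from promoters. Their median signal was 0.879, against 0.708 over all 52122 shared distal DHSs, and 85.1% held a footprint in both libraries, against 80.3%. The highest was at chr7:44405741-44406000, 5553 bp beyond the 3′ end of Syt3 and 21003 bp from its nearest start site, with 7.25 and 6.87. It exceeded the Syt3 promoter (2.01 and 1.59) in each library and had 3 and 5 footprints, but its nearest coding start site was that of 1700008O03Rik. The next lay at chr11:69096981-69097240 inside the circadian clock gene Per1, 4596 bp beyond the 3′ end of Vamp2, with 4.16 and 7.79. The libraries differed here, with a mean ± SD of 5.97 ± 2.56 (n = 2).

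At 2 of the 10 highest, the nearest coding start site was that of the release gene. The first was at -10947 bp from the start site of Bsn (chr9:108201181-108201480), with 3.18 and 4.76, above the Bsn promoter in each library. The start site of the unclassified transcript Gm37230 was nearer, at 9983 bp. The second was at -8892 bp from that of Rab3b (chr4:108870061-108870280), with 4.62 and 2.74 against 0.647 and 0.523 at the first coding start sites of Rab3b. At Bsn and Rab3b, as at Slc17a7, an upstream site was thus higher in both libraries than the promoter. The sites at Bsn and Rab3b were picked for a high signal, and that at Slc17a7 after its values were seen. This is not particular to these genes. Upstream sites above the promoter in both libraries were found at other release genes too, among them Unc13c and Rims3. The other sites among the 10 highest were nearer to Borcs6, Shank1, Tuba3a, Bicra, Aurkb and Csk than to the release gene within 50 kb, which was Vamp2, Syt3, Vamp1, Napa, Vamp2 and Cplx3.

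RE1 was the motif whose share among release genes stood farthest above the share among all genes in relative terms. Within 150 bp of any start site, 4 of the 49 (8.16%) held a match, against 0.574% of all protein-coding genes. The genes were Rph3a, Slc17a6, Syn1 and Syp. With the most 5′ start site alone there were 2 (4.08%), against 0.210%. The Syn1 match, printed above, began at base -232 from the RefSeq start site with 1 mismatch, and lay inside the promoter peak of both libraries without touching a footprint of either. The Rph3a match began at base -92 with 2 mismatches and likewise lay in a peak of both libraries and in no footprint. The Syp match touched a footprint in replicate 1 and none in replicate 2, and the Slc17a6 match lay in a peak of replicate 2 only.

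The GC box GGGCGG was the commonest match, in 91.8% of the release genes against 58.1% of all protein-coding genes, within 150 bp of any start site. In the promoter DHSs themselves it touched a footprint of both libraries at 46.7% of the release genes, against 43.5%. The bare E-box CAGATG was found at 24 of the 49 release genes against 38.8% of all, and the CTCF core CCACNAGGG at 6.12% against 4.07%. Both directions turned when the most 5′ start site alone was searched, with 8.16% against 14.4% for the E-box and 0% against 1.59% for the CTCF core. They also turned within the promoter DHSs, with 6.67% against 10.4% and 0% against 2.28%. For the GC box the release genes had the higher share there too, 77.6% against 45.5% at the most 5′ start site and 71.1% against 63.5% in the DHSs. The EGR match, the site of the activity-induced factors of the Egr family, was inside footprints of both libraries at Unc13a, printed above, and at Vamp2. At Unc13a and Vamp2 a GC box match overlapped the EGR match. An RFX match in the Syt5 promoter and an NRF1 match in that of Bsn were likewise inside footprints of both libraries. At Syn1 the CRE and an NRF1 match that begins just before the printed bases touched footprints of both. Among open promoter DHSs, EGR matches touched footprints of both libraries at 4.44% of the release genes, against 1.18% of all protein-coding genes. For NRF1 the shares were 4.44% against 2.18%, for RFX 2.22% against 0.438%, and for the CRE 2.22% against 3.56%. Each of these release gene shares rests on 1 or 2 genes, and that of the CRE was below the share of all. A match gives the letters alone and names no bound protein.

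**Figure D5:**
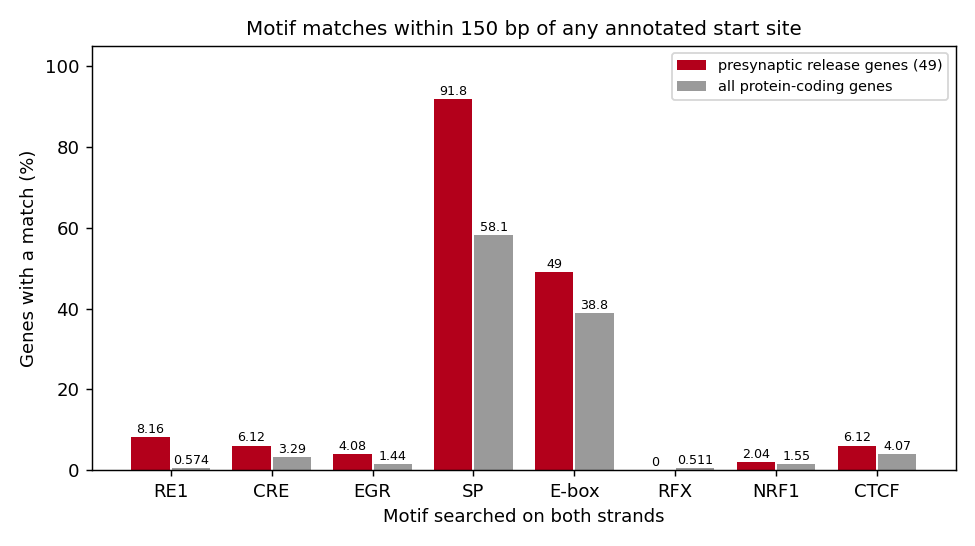
Percent of genes with a match within 150 bp of any annotated start site (vertical) for each of 8 motifs (horizontal); red bars are the 49 release genes, grey bars all protein-coding genes. RE1 reaches 8.16% against 0.574%, and the GC box, labelled SP, 91.8% against 58.1%.

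The 42 other genes of the release pathway, taken from a separate list, were open in both libraries in 35 cases (83.3%), against the 62.7% of all protein-coding genes. Their median signal was 2.12, and their mean number of distal DHSs was 4.14. The highest were Dnm2 at 9.56 and 7.54, Snap29 at 6.58 and 7.74, and Vamp3 at 6.25 and 6.84. Each of these is a broadly used relative of a neuronal release gene. No promoter peak was found in either library at Cplx4, Syt15, Unc13d and Slc18a3, the last being the vesicular acetylcholine transporter gene.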

How the data were processed

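DNase-seq libraries of the left cerebral cortex of 2 mice, replicates 1 and 2 of 1 group, were analysed on mm10. Per the labels, peaks belong to each library and were not pooled. The authors deposited for each library 2 peak lists with a signal per peak, footprints with a constant p-value, and segments whose local cleavage rate has a q-value. The sources used here name neither the aligner nor the callers. They give no unit for the signal either, so depth is unknown and no counting interval can be had.

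The larger peak list was used. Genes and start sites came from GENCODE M21 (chrM left out). Overlap meant at least 1 bp. A promoter was the 1 kb on either side of any start site, and its value the highest peak signal there. A distal DHS was a shared one within 50 kb of a start site of the gene and over 1 kb away from every start site. Motifs were searched in 301 bp around each start site and in the highest promoter DHS. Sequences came from RefSeq (GRCm38.p6), which had promoters for 38 of the 49 genes. Python 3.11.15, numpy 2.4.6, pysam 0.24.0 and samtools 1.23.1 were used, and the overlap and motif steps gave the right answer in 200 of 200 simulated cases each.

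All 49 genes are named, as are their 10 highest distal DHSs, the 5 genes with the most distal and gene body DHSs, neighbours sharing a promoter peak, and, of the other release genes, those with no promoter DHS and the 3 highest. Printed promoters were to hold a match inside footprints of both libraries or a high signal; those of Syn1 and Rph3a and the DHS upstream of Slc17a7 were chosen after their values were seen. The members and lists were chosen with earlier results of these data known. No test was made, since there is 1 group. Alternatives changed the peak list, window, start sites, overlap, distance, scale and library.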

Additional observations from a re-analysis of the deposited data

How the results depend on the processing

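The count of open promoters among the 49 release genes lay between 42 and 49 under every alternative run, and that of promoters with a footprint between 44 and 48. Over all protein-coding genes the shares ran between 57.2% and 67.8% for open promoters and between 58.6% and 65.9% for footprints. The count of 49 came from replicate 2 alone, where the share of all protein-coding genes was 67.8%. The stricter peak list left 43 (without Rims3 and Sv2b), start sites of protein-coding transcripts 44 (without Slc17a7), and the most 5′ start site 42 (without Doc2a, Slc17a7 and Syt11). The shares of all protein-coding genes under these settings were 57.2%, 61.4% and 57.6%. The median promoter signal was 3.30 when peaks were summed, 2.46 when divided by the median over shared DHSs, and 1.91 to 2.01 from 1 library; it was below that of all open protein-coding promoters each time (3.38, 2.99, 2.13 and 2.52). The mean number of distal DHSs was 2.61 within 20 kb, 8.12 within 100 kb and 2.98 with the stricter list, against 1.42, 5.86 and 1.86. From 1 library it was 5.63 to 12.8, against 3.50 to 7.20. The median of gene body DHSs per 100 kb was 0.486 with the stricter list, against 0, and 2.36 to 7.48 from 1 library, against 0 to 1.65. The higher distal and gene body values are those of replicate 2 alone, which has more peaks. Single promoter values moved by more than their spread at Stxbp5, Sv2a, Rims3, Erc2 and Ppfia2. No paired analysis was possible because there is 1 group. With 2 libraries and an unknown depth, a promoter without a peak is one where none was detected.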

Other observations

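At Rab3a the deposited segments with a false discovery rate of at most 0.05 covered 100% of the 3779 bp promoter window in replicate 2 and 19.3% in replicate 1. The lowest rate there was 8.40e-323 in replicate 2 and 9.06e-21 in replicate 1, although the peak signals were alike (6.08 and 5.08). At Napa, which had the highest promoter peak, the segments covered 11.5% of the window in replicate 2 and 14.3% in replicate 1. The Rab3a window held 6 peaks in replicate 2 and 2 in replicate 1.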
